A study of Mus musculus with 8 samples.

Results

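Kruppel-like factors are the subject here: 10 genes of the family, Klf2, Klf3, Klf4, Klf6, Klf7, Klf9, Klf10, Klf11, Klf13 and Klf16, described across mouse embryonic fibroblasts (MEFs) with and without caveolin-1 on stiff and soft substrates. The 10 genes were listed by name, out of 14 Klf genes and 12528 genes in the deposited expression table, and the set was chosen from these same data because Klf6 was lower in the caveolin-1-deficient cells and on the stiff substrate. The values that chose it are therefore the genotype and stiffness differences of Klf6, which are given below as levels without a test. The other 9 genes were tested along with every gene of the table. They and the gene lists below were also chosen with earlier results of these data known. Their counts and medians beside those of all genes are therefore descriptions.

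The MEFs, immortalized lines, came from wild-type (WT) mice and from littermates lacking Cav1 (Cav1KO). Cells of each genotype were seeded sparsely on stiff or soft polyacrylamide gels and RNA was taken 24 h later, giving 4 groups of 2 libraries: WT stiff and WT soft, and Cav1KO stiff and Cav1KO soft. Polyadenylated RNA was sequenced and is reported as CPM after TMM (trimmed-mean) normalization, a gene's reads as a share of its library, scaled to a common library size. The comparisons ask how substrate stiffness alters these genes, and whether the response depends on Cav1. The labels do not say whether the 2 libraries of a group come from separate cultures or animals, so p-values here measure the spread between these libraries, and the genotype cannot be told apart from the cell line that carries it.

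Kruppel-like factors are transcription factors with zinc fingers of the C2H2 type at the C-terminal end, which bind GC-rich and CACCC sequences in promoters. The family divides by what the N-terminal end recruits. Klf2, Klf4, Klf6 and Klf7 work mostly as activators with histone acetyltransferases such as p300, Klf3 recruits the corepressor CtBP, and Klf9, Klf10, Klf11, Klf13 and Klf16 recruit the Sin3 corepressor complex. Several are rapidly induced genes in fibroblasts: Klf10 and Klf11 respond to transforming growth factor beta, Klf9 to glucocorticoids, and Klf2 and Klf4 to the kinase ERK5 and the MEF2 factors it activates.

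The reads recovered for the genes of the deposited table summed to 17089836 to 19944952 in each library, and 1 read was worth 0.0502 to 0.0604 CPM. The 10 genes were covered by 51 reads (the lowest library for Klf11) to 3166 reads (the highest for Klf6). The targeted gene Cav1 ranged from 949.8 to 1157 CPM across the 4 WT libraries and reached at most 0.411 CPM in the 4 Cav1KO libraries, as labelled. Of 8 fibroblast markers 7 were in the table (Thy1 was not), none of 6 endothelial or 5 epithelial markers was, and of 5 macrophage markers Cd68 alone was, at 0.552 to 4.55 CPM. The summed fibroblast markers were at 8924 to 9109 CPM on WT stiff, 11110 to 11320 CPM on WT soft, 4268 to 5335 CPM on Cav1KO stiff and 12660 to 12700 CPM on Cav1KO soft. Their part in the differences below was not tested, and in bulk RNA fewer expressing cells and less RNA per cell cannot be told apart.

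**Figure D1:**
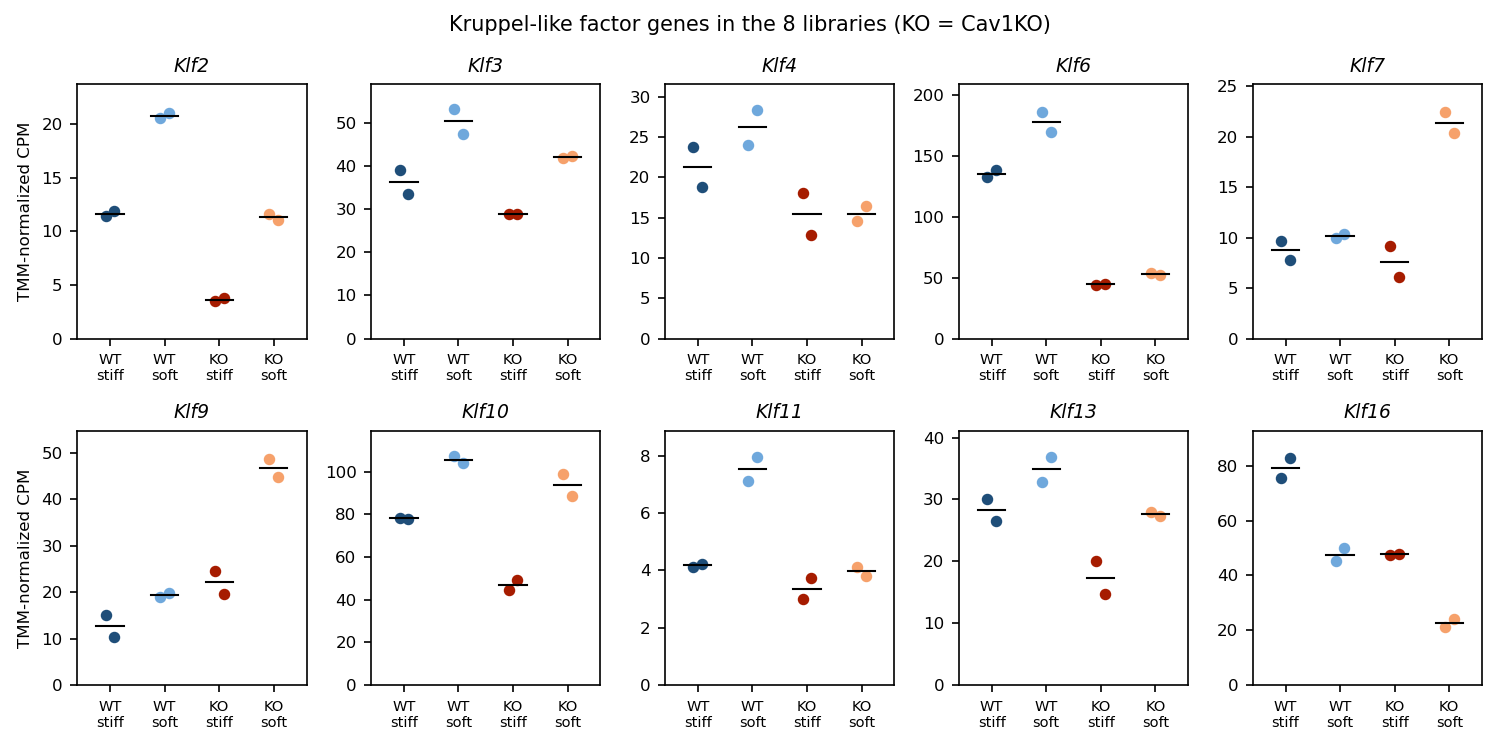
TMM-normalized CPM (y axis, from 0, a separate scale for each gene) of the 10 Kruppel-like factor genes in the 4 groups; each point is 1 of the 2 libraries of a group and the bar is their mean. Klf6 sits between 133.2 and 186.4 CPM in WT libraries and between 44.4 and 53.6 CPM in Cav1KO libraries, Klf16 is highest on WT stiff, and Klf7 and Klf9 are highest on Cav1KO soft.

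Divided by the length of the merged exons, a rough allowance for gene length, Klf6 was the most abundant of the 10 over all libraries, with a mean level of 23.4 CPM per kb. Klf10 followed at 19.4 CPM per kb and Klf16 at 18.4 CPM per kb. The remaining 7 genes ranged from 6.43 CPM per kb (Klf4) down to 1.10 CPM per kb (Klf11). The makeup of the set differed between groups. Klf6 held 29.7% of the summed per-length level on WT stiff and 33.9% on WT soft, and 17.8% on Cav1KO stiff and 16.1% on Cav1KO soft. In Cav1KO cells another gene was on top: Klf16 on stiff, with 31.0% of the sum, and Klf10 on soft, with 30.0%. Klf9 went from 2.55% of the sum on WT stiff to 13.0% on Cav1KO soft, where it ranked behind Klf10 and Klf6. With the longest transcript as the length, Klf10 came first and Klf6 next, and 3 of the 10 genes kept their overall rank.

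**Figure D2:**
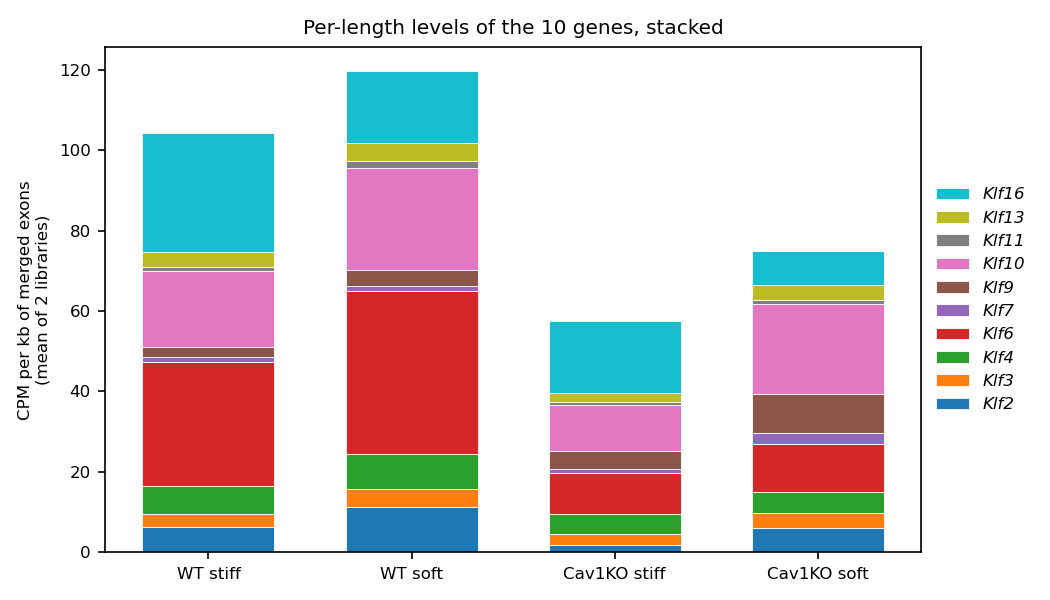
Levels per kb of merged exons (y axis, CPM per kb, mean of 2 libraries, no error shown) of the 10 genes stacked in each of the 4 groups. The Klf6 segment is 30.9 and 40.6 CPM per kb in the WT groups and 10.2 and 12.0 CPM per kb in the Cav1KO groups.

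In WT cells, 5 of the 9 tested genes were lower on the stiff substrate (Klf2, Klf3, Klf9, Klf10 and Klf11), 1 was higher (Klf16), and Klf4, Klf7 and Klf13 did not pass the threshold. Calls here rest on limma fitted to log2(CPM + 1) of 12494 genes, with a Benjamini-Hochberg adjusted p under 0.05. Over all tested genes 26.3% were called lower and 22.1% higher in this comparison. The median log2 difference, stiff minus soft, was −0.43 over the 9 genes and −0.019 over all genes.

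In Cav1KO cells, 6 of the 9 were lower on stiff (Klf2, Klf3, Klf7, Klf9, Klf10 and Klf13), beside 28.2% of all genes, and Klf16 was again the 1 that was higher, beside 27.9% of all genes. Klf4 and Klf11 did not pass. The median log2 difference was −0.65 over the 9 and −0.023 over all genes. The 2 stiffness comparisons share no library, but they were tested in the same fit with a common estimate of the spread, so their calls are not independent.

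Between genotypes on the stiff substrate, Klf2, Klf3, Klf10, Klf13 and Klf16 were lower in Cav1KO cells (5 of 9, beside 26.6% of all genes) and Klf9 was higher (1 of 9, beside 25%). On the soft substrate Klf2, Klf4, Klf11 and Klf16 were lower (4 of 9, beside 29.9%) and Klf7 and Klf9 were higher (2 of 9, beside 24.1%). Klf2 and Klf16 were lower in Cav1KO cells and Klf9 higher on both substrates. The median log2 difference, Cav1KO minus WT, was −0.45 on stiff and −0.32 on soft over the 9 genes, against −0.025 and −0.032 over all genes. These comparisons use the same libraries as the stiffness comparisons and are not independent of them.

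**Figure D3:**
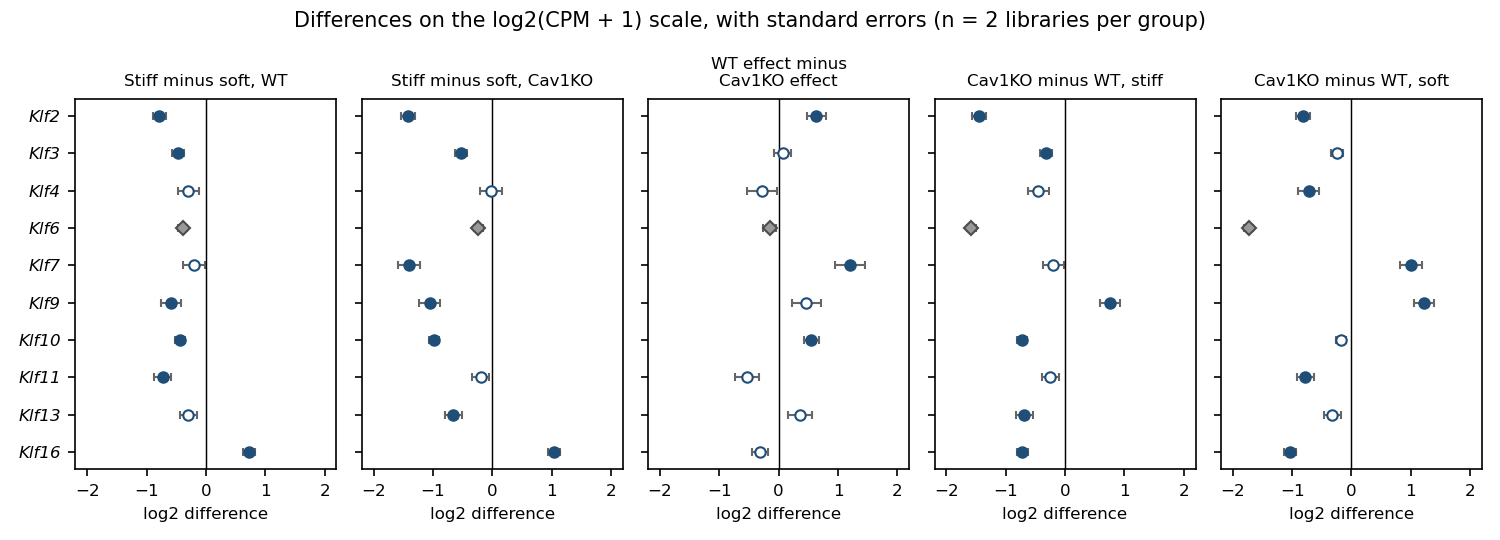
Log2 differences on the log2(CPM + 1) scale (x axis) for the 10 genes in 5 comparisons, with standard errors from the limma fit; filled circles passed the adjusted threshold, open circles did not, and the grey diamond is Klf6, which was not tested. Klf16 is alone on the right in both stiffness panels (in Cav1KO cells Klf4 and Klf11, which were not called, move there with quantile normalization), and Klf9 lies on the right in both genotype panels.

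Klf6 (chr13:5861482-5870394, + strand, GENCODE annotation of GRCm38) is a widely expressed activator of growth arrest and matrix genes. It measured 133.2 and 138.2 CPM on WT stiff, 186.4 and 170.1 CPM on WT soft, 44.4 and 45.2 CPM on Cav1KO stiff, and 53.6 and 52.1 CPM on Cav1KO soft. Every WT library lay above every Cav1KO library, and within each genotype the soft libraries lay above the stiff ones. The group means were 3.03 times as high in WT as in Cav1KO cells on stiff and 3.37 times on soft (log2 differences, Cav1KO minus WT, of −1.58 and −1.73, each with a standard error of 0.074). The soft mean was 1.31 times the stiff mean in WT cells and 1.18 times in Cav1KO cells, with log2 differences, stiff minus soft, of −0.39 and −0.24. The WT effect minus the Cav1KO effect was −0.15 ± 0.10 SE. As these contrasts chose the gene, no p-value is attached to them. Klf6 was also among the most repeatable of the set, with libraries of a group at most 1.10-fold apart.

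The 250 bases before the start of transcription are shown for 3 of the genes, in the RefSeq annotation of build GRCm38.p6, because their levels set them apart: Klf6, which leads the set in WT cells, Klf2, which had the widest range, and Klf9, which ran opposite to Klf6 between genotypes. Capitals mark matches, on either strand, to 6 motifs: the core GGGTG bound by Kruppel-like factors, the core TGACG of cyclic AMP response elements, the TEAD factors' motif GGAATG, the AP-1 factors' motif TGACTCA, the SRF CArG box and the MEF2 consensus. Matches of different motifs did not overlap in these windows.
Klf6 (chr13:5861239-5861488, + strand): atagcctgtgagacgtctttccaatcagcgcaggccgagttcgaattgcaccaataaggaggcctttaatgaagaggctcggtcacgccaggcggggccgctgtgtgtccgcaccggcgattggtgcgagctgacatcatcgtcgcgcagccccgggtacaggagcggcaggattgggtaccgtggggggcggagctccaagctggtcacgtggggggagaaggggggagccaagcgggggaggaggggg
Klf2 (chr8:72318812-72319061, + strand): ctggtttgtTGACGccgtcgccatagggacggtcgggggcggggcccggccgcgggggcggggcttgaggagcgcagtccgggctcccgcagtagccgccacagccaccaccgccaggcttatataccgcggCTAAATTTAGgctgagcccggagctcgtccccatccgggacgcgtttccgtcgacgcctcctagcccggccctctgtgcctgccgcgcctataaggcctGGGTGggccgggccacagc
Klf9 (chr19:23140976-23141225, + strand): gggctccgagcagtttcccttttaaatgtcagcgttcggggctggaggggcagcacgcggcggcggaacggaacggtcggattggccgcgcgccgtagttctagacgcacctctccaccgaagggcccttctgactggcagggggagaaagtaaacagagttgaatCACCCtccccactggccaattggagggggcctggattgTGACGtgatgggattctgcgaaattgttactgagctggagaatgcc

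RefSeq promoters were found for 8 of the 10 genes, and Klf10 and Klf16 had no entry in the table. GGGTG was in 5 of the 8 (Klf2, Klf3, Klf7, Klf9 and Klf13) and in 52.0% of all 32851 promoters. TGACG was in 4 of the 8 (Klf2, Klf4, Klf9 and Klf13) and in 17.8% of all. The MEF2 consensus, found in 1.69% of all promoters, was in the Klf2 window alone of the 8, at −118 to −109 from the start, where it reads CTAAATTTAG. The TEAD, AP-1 and SRF motifs were in none of the 8 windows, and in 12.6%, 4.46% and 1.47% of all promoters. The Klf6 window held no match to any of the 6 motifs. GC content was 64.8% for Klf6, 71.2% for Klf2 and 59.6% for Klf9, above the 52.4% median of all promoters. A match of letters is a description and not a binding site, and the absence of one says nothing about a factor.

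Klf2 (chr8:72319033-72321656, + strand), which restrains proliferation and inflammatory genes and is best known from flow-exposed endothelium, had the widest range of the 10, with the highest group mean 5.74 times the lowest. It measured 11.5 and 11.9 CPM on WT stiff, 20.5 and 21.1 CPM on WT soft, 3.47 and 3.78 CPM on Cav1KO stiff, and 11.7 and 11.1 CPM on Cav1KO soft. Soft libraries lay above stiff ones in both genotypes, WT above Cav1KO on both substrates, and the Cav1KO soft and WT stiff libraries overlapped. The soft mean was 1.78 times the stiff mean in WT cells (log2 difference, stiff minus soft, −0.79 ± 0.11 SE, limma adjusted p = 0.000756) and 3.13 times in Cav1KO cells (−1.42 ± 0.11 SE, limma adjusted p = 3.19e-05). Klf2 was 3.21-fold lower in Cav1KO than in WT cells on stiff (limma adjusted p = 1.56e-05) and 1.83-fold lower on soft (limma adjusted p = 0.000411).

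Klf4 (chr4:55527143-55532466, − strand), a reprogramming factor and cell cycle inhibitor close to Klf2 in its regulation, varied less between groups and more between replicates. Its levels were 23.8 and 18.8 CPM on WT stiff, 24.0 and 28.4 CPM on WT soft, 18.0 and 12.8 CPM on Cav1KO stiff, and 14.5 and 16.4 CPM on Cav1KO soft. Stiff and soft libraries overlapped in Cav1KO cells (log2 difference −0.021 ± 0.18 SE, limma adjusted p = 0.939), a value whose sign turns under other scalings. In WT cells the stiff libraries were both lower but the difference did not pass (−0.30 ± 0.18 SE, limma adjusted p = 0.205). On soft, Klf4 was 1.70-fold lower in Cav1KO cells (−0.72 ± 0.18 SE, limma adjusted p = 0.00895), and on stiff the difference of −0.45 missed the threshold (limma adjusted p = 0.0654). The soft call was lost without WT soft replicate 2 (limma adjusted p = 0.0665) or without Cav1KO soft replicate 1 (limma adjusted p = 0.0643). The stiff difference became a call without WT stiff replicate 2 (−0.61, limma adjusted p = 0.0485) or without Cav1KO stiff replicate 1 (−0.68, limma adjusted p = 0.0124), and was as small as −0.22 without Cav1KO stiff replicate 2 (limma adjusted p = 0.349).

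Klf7 (chr1:64029447-64122282, − strand), an activator studied mostly in neurons and adipocyte precursors, stood out in 1 group. It was at 9.69 and 7.81 CPM on WT stiff, 9.97 and 10.4 CPM on WT soft, and 9.12 and 6.08 CPM on Cav1KO stiff, but at 22.5 and 20.3 CPM on Cav1KO soft. The Cav1KO soft libraries lay above all others, while WT stiff and Cav1KO stiff overlapped. The soft mean was 2.81 times the stiff mean in Cav1KO cells (log2 difference, stiff minus soft, −1.40 ± 0.18 SE, limma adjusted p = 0.000306) and 1.16 times in WT cells (limma adjusted p = 0.390). On soft, Klf7 was 2.10-fold higher in Cav1KO than in WT cells (limma adjusted p = 0.0018). On stiff the genotype difference of −0.20 did not pass (limma adjusted p = 0.397); it was a call without Cav1KO stiff replicate 1 (−0.45, limma adjusted p = 0.0498) and had the opposite sign without Cav1KO stiff replicate 2 (0.061, limma adjusted p = 0.793). Of the 60-base windows along Klf7 exons 38.0% also match the antisense gene Gm26649, and the library kit does not mark strand, so reads of the 2 genes are uncertain. Gm26649 was listed at 1.25 to 2.72 CPM across the 8 libraries.

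Klf3 (chr5:64803388-64832901, + strand), a CtBP-binding repressor of CACCC promoters, was lower on stiff in both genotypes. It measured 39.1 and 33.5 CPM on WT stiff, 53.3 and 47.5 CPM on WT soft, 28.8 and 28.9 CPM on Cav1KO stiff, and 41.9 and 42.4 CPM on Cav1KO soft. No library of a stiff group reached one of the soft group of its genotype. The log2 difference, stiff minus soft, was −0.46 ± 0.10 SE in WT cells (limma adjusted p = 0.0056) and −0.53 ± 0.10 SE in Cav1KO cells (limma adjusted p = 0.00228), values 0.065 ± 0.14 SE apart (limma adjusted p = 0.770). Between genotypes it was 1.26-fold lower in Cav1KO cells on stiff (log2 difference −0.32 ± 0.10 SE, limma adjusted p = 0.0287) and did not pass on soft (−0.25 ± 0.10 SE, limma adjusted p = 0.0638). The genotype call on stiff depended on single libraries: the difference was −0.21 without WT stiff replicate 1 (limma adjusted p = 0.186), was lost without any 1 of the 4 Cav1KO libraries (limma adjusted p 0.055 to 0.0718), and was lost with DESeq2 (adjusted p = 0.0713) and with median centring (limma adjusted p = 0.0586).

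The transforming growth factor beta-inducible repressors Klf10 and Klf11 were both lower on stiff in WT cells, and Klf10 also in Cav1KO cells. Klf10 (chr15:38291463-38300706, − strand) was at 78.4 and 78.0 CPM on WT stiff, 107.2 and 104.2 CPM on WT soft, 44.7 and 49.3 CPM on Cav1KO stiff, and 98.9 and 88.8 CPM on Cav1KO soft. The Cav1KO stiff group was the low one, and the 2 soft groups lay closest together. The soft mean was 1.35 times the stiff mean in WT cells (log2 difference −0.43 ± 0.084 SE, limma adjusted p = 0.0033) and 2 times in Cav1KO cells (−0.98 ± 0.084 SE, limma adjusted p = 3.91e-05). Klf10 was 1.67-fold lower in Cav1KO cells on stiff (limma adjusted p = 0.000152), and on soft the difference of −0.17 did not pass (limma adjusted p = 0.114).

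Klf11 (chr12:24651274-24662789, + strand), the least abundant per length, measured 4.12 and 4.22 CPM on WT stiff, 7.13 and 7.95 CPM on WT soft, 3 and 3.73 CPM on Cav1KO stiff, and 4.13 and 3.81 CPM on Cav1KO soft. WT soft stood above the other 3 groups, which spanned 3 to 4.22 CPM. The log2 difference, stiff minus soft, was −0.72 ± 0.14 SE in WT cells (limma adjusted p = 0.0036) and −0.19 ± 0.14 SE in Cav1KO cells (limma adjusted p = 0.288), where the sign turned with quantile normalization. On soft, Klf11 was 1.90-fold lower in Cav1KO than in WT cells (limma adjusted p = 0.00192), and on stiff the difference of −0.25 did not pass (limma adjusted p = 0.179).

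Klf9 (chr19:23141226-23168134, + strand), a glucocorticoid- and thyroid hormone-induced repressor, was the member that was higher in Cav1KO cells on both substrates. Its levels were 15.2 and 10.4 CPM on WT stiff, 19.0 and 19.8 CPM on WT soft, 24.5 and 19.6 CPM on Cav1KO stiff, and 48.7 and 44.8 CPM on Cav1KO soft. WT soft and Cav1KO stiff overlapped, and Cav1KO soft stood above all. Klf9 was 1.73-fold higher in Cav1KO cells on stiff (log2 difference 0.76 ± 0.17 SE, limma adjusted p = 0.00617) and 2.41-fold higher on soft (1.23 ± 0.17 SE, limma adjusted p = 0.000432). It was also lower on stiff, by 0.59 ± 0.17 SE on the log2 scale in WT cells (limma adjusted p = 0.0215) and by 1.06 ± 0.17 SE in Cav1KO cells (limma adjusted p = 0.00101). Of these calls the one in WT was lost without WT stiff replicate 2, which also took the difference to −0.34 (limma adjusted p = 0.126), without WT soft replicate 1 (limma adjusted p = 0.0809) or without WT soft replicate 2 (limma adjusted p = 0.0909). Without WT stiff replicate 2 the genotype difference on stiff was 0.51 (limma adjusted p = 0.0327).

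Klf13 (chr7:63886351-63938915, − strand), a repressor and activator known from lymphocytes and heart, measured 30.0 and 26.5 CPM on WT stiff, 32.9 and 36.9 CPM on WT soft, 20 and 14.7 CPM on Cav1KO stiff, and 27.9 and 27.3 CPM on Cav1KO soft. Cav1KO stiff was the low group. The difference between stiff and soft passed in Cav1KO cells (log2 difference −0.65 ± 0.14 SE, limma adjusted p = 0.00484) and did not in WT cells (−0.29 ± 0.14 SE, limma adjusted p = 0.125). Klf13 was 1.63-fold lower in Cav1KO cells on stiff (limma adjusted p = 0.00432), and the difference of −0.32 on soft did not pass (limma adjusted p = 0.0878). The comparisons that missed the threshold, in WT cells and on soft, passed it without either Cav1KO stiff library (limma adjusted p 0.0427 and 0.0438, and 0.0266 and 0.0273), with the differences themselves the same. Without Cav1KO stiff replicate 1 the stiffness effects of the genotypes also differed, by 0.57 (limma adjusted p = 0.0375), against 0.36 with all libraries (limma adjusted p = 0.239).

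Klf16 (chr10:80567124-80577321, − strand), a GC-box repressor of the Sin3-binding class, was the 1 member that was higher on stiff. It measured 75.4 and 82.7 CPM on WT stiff, 45.1 and 49.9 CPM on WT soft, 47.5 and 47.7 CPM on Cav1KO stiff, and 21.3 and 24.1 CPM on Cav1KO soft. The WT soft and Cav1KO stiff libraries overlapped between a high WT stiff group and a low Cav1KO soft group. Klf16 was 1.67-fold higher on stiff in WT cells (log2 difference 0.72 ± 0.097 SE, limma adjusted p = 0.000492) and 2.10-fold higher in Cav1KO cells (1.04 ± 0.097 SE, limma adjusted p = 5.83e-05). It was 1.66-fold lower in Cav1KO than in WT cells on stiff (limma adjusted p = 0.000373) and 2.09-fold lower on soft (limma adjusted p = 4.16e-05). Klf16 and Klf2 passed in each of these 4 comparisons, as did Klf9.

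The stiffness effect itself differed between genotypes for 3 of the 9 genes, Klf2, Klf7 and Klf10, each with the larger drop on stiff in Cav1KO cells. Over all genes 4.47% were called in the direction of these 3 and 6% in the opposite one. The WT effect minus the Cav1KO effect was 0.63 ± 0.16 SE on the log2 scale for Klf2 (limma adjusted p = 0.0457), 1.20 ± 0.26 SE for Klf7 (limma adjusted p = 0.0314) and 0.55 ± 0.12 SE for Klf10 (limma adjusted p = 0.031). Klf11 had the opposite sign, with a value of −0.53 ± 0.20 SE that did not pass (limma adjusted p = 0.107). These calls depended on single libraries. Leaving out 1 library gave between 0 and 4 genes, and the Klf2 call was kept in 1 of the 8 such fits (without Cav1KO stiff replicate 1), the Klf7 call in 2 (without WT stiff replicate 2 or Cav1KO stiff replicate 1) and the Klf10 call in 3 (without WT stiff replicate 2 or either Cav1KO stiff library). The Klf2 call was also lost with DESeq2 on the recovered reads (adjusted p = 0.0699) and the Klf10 call without the mean-variance trend (limma adjusted p = 0.0568).

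Members also differed in how well their replicates agreed. The ratio of the higher to the lower library of a group stayed at or below 1.13 in each group for Klf2, Klf6, Klf10 and Klf16, and was largest for Klf7 (1.499, Cav1KO stiff), Klf9 (1.46, WT stiff), Klf4 (1.40, Cav1KO stiff) and Klf13 (1.36, Cav1KO stiff). Comparing profiles as the root mean square difference of log2(CPM + 1) values centred on each gene's mean over the 8 libraries, the nearest members were Klf3 and Klf13 (0.189), Klf3 and Klf10 (0.198) and Klf10 and Klf13 (0.203). These descriptions rest on 8 libraries that fall into 4 groups.

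Klf6 had no close neighbour among the other members. Its nearest member was Klf2, at 0.514, and of the other Klf genes Klf8 lay at 0.221, against a spread of 0.844 of Klf6 around its own mean. Klf8 was at 0.261 to 0.411 CPM in Cav1KO libraries, where the log2(CPM + 1) scale understates change. By the ratio of means Klf8 was 6.65 and 7.21 times as high in WT cells (stiff and soft), and Klf6 3.03 and 3.37 times. Across 10063 genes the profiles nearest to Klf6 were those of Fblim1 (0.138), Rgs2 (0.141), Rhob (0.164), Arntl (0.166) and Sertad4 (0.171). Fblim1 encodes a filamin-binding adaptor of cell-matrix adhesions and averaged 39.7 CPM on stiff and 52.3 CPM on soft in WT cells, and 11.9 and 18.0 CPM in Cav1KO cells. Rgs2, a regulator of G-protein signalling, averaged 17.9, 24.4, 6.95 and 6.56 CPM in the same order. Rhob, a small GTPase of endosomes, averaged 145.0, 160.1, 51.3 and 46.7 CPM, so that the means of Rgs2 and Rhob were not higher on soft in Cav1KO cells.

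The table also held 4 Klf genes outside the 10, and for 2 of them, Klf15 and Klf5, the difference between genotypes on the log2(CPM + 1) scale was larger in size than that of any of the 9 tested members on either substrate. That scale understates the change of low genes, and by the ratio of group means Klf8 exceeded the 9 as well. Klf15, a regulator of amino acid and lipid metabolism, was at 0.502 and 0.684 CPM on WT stiff, 6.40 and 3.55 CPM on WT soft, 19.6 and 21.3 CPM on Cav1KO stiff, and 48.7 and 43.3 CPM on Cav1KO soft. It was 34.4-fold higher in Cav1KO cells on stiff (limma adjusted p = 2.44e-06) and 9.24-fold higher on soft (limma adjusted p = 8.38e-06). Its WT effect minus its Cav1KO effect, −0.74 ± 0.30 SE, did not pass (limma adjusted p = 0.126), but did with edgeR (−1.89, adjusted p = 0.0401) and DESeq2 (−1.89, adjusted p = 0.000948) on the recovered reads and without WT soft replicate 2 (−1.09, limma adjusted p = 0.0476). Klf5, which drives proliferation, went the other way, with 49.1 and 43.2 CPM on WT stiff, 33.7 and 26.8 CPM on WT soft, 13.6 and 11.8 CPM on Cav1KO stiff, and 6.53 and 6.63 CPM on Cav1KO soft. It was lower in Cav1KO cells (3.64-fold on stiff, limma adjusted p = 1.4e-05, and 4.60-fold on soft, limma adjusted p = 6.24e-06) and, with Klf16, higher on stiff in both genotypes, although its WT stiffness call was lost without WT stiff replicate 1 (limma adjusted p = 0.0564) or WT soft replicate 2 (limma adjusted p = 0.0506). Klf8, a CtBP-binding repressor, was at 2.06 to 2.54 CPM in WT and 0.261 to 0.411 CPM in Cav1KO libraries, with WT means 6.65 times the Cav1KO mean on stiff and 7.21 times on soft. Klf12, of the same class, passed in Cav1KO stiffness alone (log2 difference −0.73 ± 0.20 SE, limma adjusted p = 0.0129), a call lost with DESeq2 (adjusted p = 0.0763), with quantile normalization (limma adjusted p = 0.114), without Cav1KO stiff replicate 2 (limma adjusted p = 0.0594) and without Cav1KO soft replicate 1 (limma adjusted p = 0.0886).

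**Figure D4:**
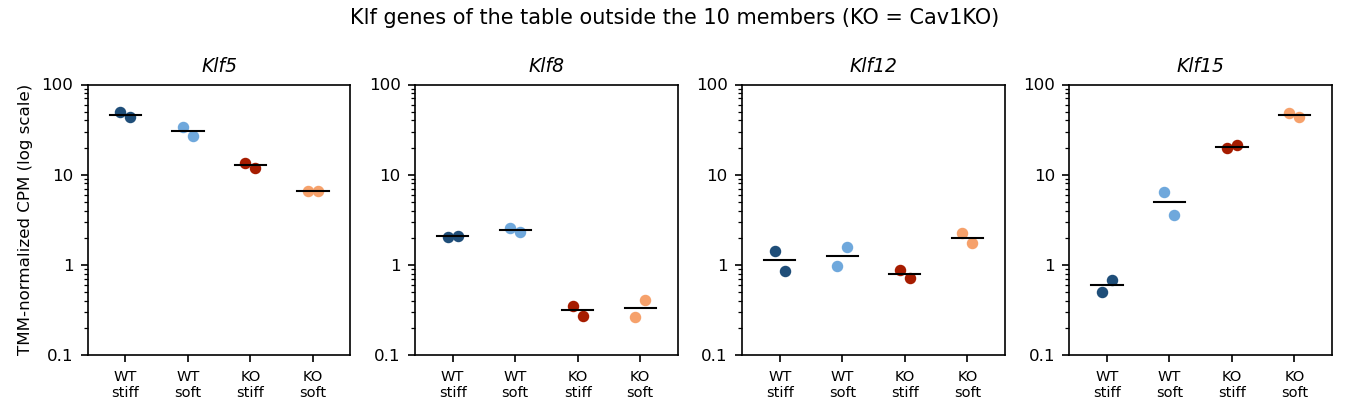
TMM-normalized CPM (y axis, log scale) of the 4 Klf genes of the table outside the 10 members, by group; each point is 1 of 2 libraries and the bar is their mean. Klf15 runs from 0.502 CPM in a WT stiff library to 48.7 CPM in a Cav1KO soft library, and Klf5 and Klf8 are lower in every Cav1KO library than in any WT library.

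Of 16 listed genes of the Klf and Sp families outside the members 8 were in the table, these 4 and Sp1, Sp2, Sp3 and Sp4. Sp1, the general GC-box activator, was called lower on stiff in both genotypes, and Sp3, which competes for the same boxes, lower in Cav1KO cells on both substrates. Each of these calls was lost under at least 1 alternative: the highest adjusted p over the alternatives was 0.22 in WT and 0.0612 in Cav1KO cells for Sp1, and 0.186 on stiff and 0.134 on soft for Sp3.

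Of 12 genes of the corepressors that the repressor members recruit, 6 were higher on stiff in WT cells, beside 22.1% of all genes, and the other 6 did not pass, with a median log2 difference of 0.32 against −0.019 over all genes, and in Cav1KO cells 8 were higher and 2 lower, beside 27.9% and 28.2% of all genes (median 0.43 against −0.023). Ctbp1, a partner of Klf3, was higher on stiff by 0.39 on the log2 scale in WT cells (limma adjusted p = 0.00201) and by 0.74 with the deletion (limma adjusted p = 5.7e-05). Sap30, a Sin3 complex subunit, was higher on stiff in Cav1KO cells (log2 difference 0.82, limma adjusted p = 0.00111). Between genotypes 4 of the 12 were lower and 2 higher in Cav1KO cells on stiff, beside 26.6% and 25% of all genes. On soft 5 were lower and 3 higher, beside 29.9% and 24.1%. Ncor1, a scaffold of a histone deacetylase complex, was lower on stiff in Cav1KO cells (−1.02, limma adjusted p = 0.000803) and higher in Cav1KO than in WT cells on soft (1.10, limma adjusted p = 0.000531). On stiff it was called lower in Cav1KO than in WT cells (−0.47, limma adjusted p = 0.0365). In WT cells Ncor1 was called higher on stiff (0.54, limma adjusted p = 0.0217). Its WT effect minus its Cav1KO effect was 1.57 (limma adjusted p = 0.0092). For Ncor1 the WT stiffness call, the genotype call on stiff and the call of the difference between effects were each lost under at least 1 alternative. Of the 4 acetyltransferases used by the activator members, Ep300 (log2 difference 0.998, limma adjusted p = 0.00145) and Crebbp (1.17, limma adjusted p = 0.00468) were higher in Cav1KO cells on soft. On soft 1 other was lower, beside 24.1% of all genes higher and 29.9% lower. In Cav1KO cells 3 of the 4, Ep300 and Crebbp among them, were lower on stiff and 1 was higher, beside 28.2% and 27.9%. Kat2a was higher on stiff in WT cells (0.81, limma adjusted p = 0.000451) and 1 other was lower, beside 22.1% and 26.3%.

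Upstream of Klf2 and Klf4, 7 of the 11 genes of the ERK5, MEF2 and cerebral cavernous malformation group were lower in Cav1KO cells and 1 higher on stiff, beside 26.6% and 25% of all genes, and on soft 7 were lower and 2 higher, beside 29.9% and 24.1%. The median log2 difference was −0.41 on stiff and −0.33 on soft, against −0.025 and −0.032 over all genes. The list pools the ERK5 and MEF2 genes with those of the malformation group, to which Heg1 belongs. Genes of both kinds were among the lower ones on each substrate, so these counts and medians give no direction for Klf2 and Klf4. Mef2d was at 62.5 to 73.5 CPM in WT libraries and at 23.7 to 33.0 CPM in Cav1KO libraries (log2 difference on stiff −1.45, limma adjusted p = 3.8e-06). Mef2c was at 1.94 to 3.99 CPM in WT libraries and had 1 read in 1 of the 4 Cav1KO libraries and none in the others. Heg1, the receptor whose loss raises Klf2 and Klf4 in endothelium, was the gene that was higher on both substrates, by 3.98 on the log2 scale on soft (limma adjusted p = 4.7e-07). Mapk7, which encodes ERK5, was lower in Cav1KO cells on soft (log2 difference −0.52, limma adjusted p = 0.0023).

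Genes induced alongside Klf9 by glucocorticoids split, beside background shares of 24.1% to 29.9% in either direction between genotypes. Of 5 in the table, Tsc22d3 (log2 difference on stiff 1.36, limma adjusted p = 3.71e-05) and Fkbp5 were higher in Cav1KO cells on both substrates, like Klf9, and Dusp1 (on soft −2.11, limma adjusted p = 2.82e-06) and Sgk1 (on soft −1.24, limma adjusted p = 2.2e-05) were lower. On stiff 3 of the 5 were called lower and 2 higher, and on soft 2 lower and 2 higher. Between substrates 2 of the 5 were called lower on stiff and 2 higher in each genotype, beside 22.1% to 28.2% of all genes in either direction. Tsc22d3 was among the lower ones in both genotypes, like Klf9, but Fkbp5 was among the higher ones. Fkbp5 averaged 24.4 CPM on WT stiff, 12.0 CPM on WT soft, 44.5 CPM on Cav1KO stiff and 26.1 CPM on Cav1KO soft. Of 14 immediate early genes, 7 were lower and 5 higher on stiff in WT cells, beside 26.3% and 22.1% of all genes, and 8 lower and 5 higher in Cav1KO cells, beside 28.2% and 27.9%. Between genotypes 8 of the 14 were lower and 1 higher in Cav1KO cells on stiff, beside 26.6% and 25%. On soft 8 were lower and 2 higher, beside 29.9% and 24.1%. Atf3, a stress-induced repressor, was lower on stiff in WT cells by 2.50 on the log2 scale (limma adjusted p = 8.62e-05), Fosb, a subunit of AP-1, was lower on stiff in Cav1KO cells by 1.82 (limma adjusted p = 3.4e-05), and Egr3 was lower in Cav1KO than in WT cells on stiff by 2.05 (limma adjusted p = 3.01e-06).

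Of 14 tested genes reported as targets of Klf6 or its relatives, 10 were lower and 1 higher in Cav1KO cells on stiff, beside 26.6% and 25% of all genes, and 8 were lower and 4 higher on soft, beside 29.9% and 24.1%. The counts do not separate targets that are activated from ones that are repressed. Tgfbr1 was the gene higher on stiff, and it was also called higher on soft. Its means were 43.2 CPM on WT stiff, 53.5 CPM on WT soft, 139.5 CPM on Cav1KO stiff and 116.1 CPM on Cav1KO soft. Cdkn1a, the cell cycle inhibitor p21 that Klf6 and Klf4 activate, averaged 6.76 CPM on WT stiff, 15.6 CPM on WT soft, 4.19 CPM on Cav1KO stiff and 1.64 CPM on Cav1KO soft (log2 difference on soft, Cav1KO minus WT, −2.66, limma adjusted p = 2.08e-06). Its stiffness effect had opposite signs in the genotypes, a log2 difference of −1.10 without the deletion (limma adjusted p = 0.000545) and of 0.98 with it (limma adjusted p = 0.000736), and the effects differed (limma adjusted p = 0.00286). Mmp14, a membrane matrix metalloproteinase, was lower on stiff in Cav1KO cells (−2.40, limma adjusted p = 1.33e-05). Between genotypes it was called lower in Cav1KO cells on stiff and higher on soft. Its means were 69.9 CPM on WT stiff, 117.7 CPM on WT soft, 49.0 CPM on Cav1KO stiff and 261.5 CPM on Cav1KO soft. Of 5 ubiquitin ligase genes that act on Kruppel-like factor proteins, 2 were lower and 1 higher in Cav1KO cells on soft, beside 29.9% and 24.1% of all genes. On stiff 3 were lower and 0 higher, beside 26.6% and 25%. Btrc was among the lower ones on soft (−0.54, limma adjusted p = 0.00107). RNA levels do not show protein levels, and none of the genes in these lists was tied to a member by a test.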

How the data were processed

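RNA of 8 libraries (2 per group; poly(A)+ selected from 500 ng of total RNA, a kit that does not mark strand, single reads of 60 bases) was sequenced. Per the submitters' processing notes, CASAVA 1.8.2, cutadapt and RSEM 1.2.3 were used with GRCm38. The deposited signal values are CPM that the authors normalized by the trimmed mean of M values; 100% of them are whole multiples of 1 read (within 0.01 reads), so reads were recovered for count tests. Groups came from the sample titles. The members and gene lists were chosen with earlier results of these data known. Named are the 10 members, other Klf and Sp genes past the threshold, and the 5 profiles nearest Klf6. From each list up to 3 genes past the threshold with the largest difference are named. Ctbp1, Fkbp5, Mapk7 and Tgfbr1 were added after their values were seen. Some list genes whose calls an alternative ended are left unnamed, and others, such as Ncor1, Sp1 and Sp3, are named with that limit.

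Genes with at least 1 CPM in 2 libraries (12494 of 12528; all 10 members passed) were tested on log2(CPM + 1), a scale that understates changes of low genes, with limma 3.58.1 (R 4.3.3; 1 mean per group, mean-variance trend, two-sided, Benjamini-Hochberg, 4 residual degrees of freedom), after a check on simulated data. Count tests on the recovered reads with edgeR 4.0.16 and DESeq2 1.42.0, other pseudocounts, filters, scalings, a replicate block and leaving out each library were alternatives. Lengths and positions are from GENCODE mouse release 21, and promoters from RefSeq. A count of 0 allows up to 3 reads, 0.151 to 0.181 CPM, counting error only. One gene of the corepressor list is not reported here by name.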

Additional observations from a re-analysis of the deposited data

Results flagged for a closer look

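The effect of stiffness differed between WT and Cav1KO cells, by limma's test of the difference itself, for 3 members. The WT effect minus the Cav1KO effect was 0.63 on the log2 scale for Klf2 (limma adjusted p = 0.0457, adjusted p over all alternatives 0.0322 to 0.173), 1.20 for Klf7 (limma adjusted p = 0.0314, range 0.00492 to 0.137) and 0.55 for Klf10 (limma adjusted p = 0.031, range 0.0128 to 0.144). Klf2 and Klf10 were lower on stiff in both libraries of both genotypes, and more so in Cav1KO cells. Klf7 was lower on stiff in both Cav1KO libraries, while its difference in WT cells did not pass. The 60-base windows that Klf7 shares with Gm26649 leave its reads uncertain.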

How the results depend on the processing

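Over 9 alternatives other than leaving out a library, 394 of 405 single-gene results for the 9 tested members kept their direction and their side of the threshold, 8 lost a call and 3 changed sign without having been called. The Klf6 difference averaged over substrates, −1.66, was −1.58 with a pseudocount of 5, and its stiffness difference averaged over genotypes, −0.31, was −0.25 with median centring and −0.36 with quantile normalization. With longest transcripts 3 of 10 genes kept their rank. Changed signs, none of them calls, were those of the Cav1KO stiffness difference of Klf4 (0.066 with median centring, 0.16 with quantile normalization), Klf11 (0.12 with quantile normalization) and Klf8 (0.064 and 0.16), of the WT stiffness difference of Klf8 (0.11) and Klf12 (0.18) with quantile normalization, and of the Klf15 difference between effects (0.18 with a pseudocount of 5, −0.74 in the reported fit), which was a call with edgeR and DESeq2 (−1.89 with each). The cause was not tested.

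Over the fits that leave out 1 library, 319 of 360 such results kept their direction and side of the threshold, 28 lost a call, 8 gained one and 5 changed sign. Leaving out 1 library gave 5 to 7 members for the WT stiffness comparison, 7 to 7 for Cav1KO stiffness, 0 to 4 for the difference between the effects, and 5 to 7 for genotype on either substrate, with Klf6 differences of −1.69 to −1.62 and −0.35 to −0.28; a lone library is assumed to vary like the other groups. In 5 comparisons, none a call with all libraries, the sign changed in 1 or 2 of these fits, none of them calls: Klf3 (difference between effects, −0.043 to 0.17), Klf4 (Cav1KO stiffness, −0.25 to 0.21), Klf7 (genotype on stiff, −0.45, a call at that end, to 0.061), Klf8 (Cav1KO stiffness, −0.10 to 0.058) and Klf12 (WT stiffness, −0.28 to 0.10). Over all genes the difference between effects had 1309 calls, 705 without the mean-variance trend and 110 (without Cav1KO soft replicate 1) to 3436 (without Cav1KO stiff replicate 1), and WT stiffness had 6046, or 3913 without WT soft replicate 1.

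The replicate numbers are not stated to mark a shared day, and deviations of same-numbered libraries correlated between groups from −0.37 to 0.42. With the replicate block 6, 7, 2, 6 and 6 members were called (WT stiffness, Cav1KO stiffness, difference between effects, genotype on stiff, genotype on soft) against 6, 7, 3, 6 and 6, and the Klf2 difference between effects was lost (limma adjusted p = 0.0537). The Klf2 call was also lost with a pseudocount of 5, median centring and quantile normalization (limma adjusted p = 0.108, 0.0564 and 0.0918). With 51 reads at the least, depth limited Klf11 most among the members.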
